A study of Mus musculus with 5 samples.

Results

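The nuclear genes for respiratory complexes II to V and cytochrome c were examined in the hippocampus of newborn mice. Members were taken by symbol: the succinate dehydrogenase genes Sdha to Sdhd, all genes starting with Uqcr or Uqcc, Cyc1, Cycs, the Cox4 to Cox8 genes with a letter after the digit, and all genes starting with Atp5, without pseudogenes or Gm models. This gave 52 members of the 32285 features in the files. Complex II contributed 4 of them, complex III 9, the assembly genes of complex III (Uqcc1, Uqcc2 and Uqcc3) 3, cytochrome c 1 (Cycs), complex IV 17, and complex V, the ATP synthase, 17. The remaining member, Cox7a2l, links complexes III and IV into a supercomplex. The rule used symbols only, but it was set with earlier results of these data known.

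Single-cell RNA was read in 5 droplet libraries of hippocampus from pups at postnatal day 1, each made from 2 pooled pups and dissociated with papain. The wild-type group (Trem2 +/+, WT) had 3 libraries, numbered 1, 2 and 3, and the knockout group (Trem2 -/-, KO) had 2, numbered 2 and 3. TREM2 is a lipid-sensing receptor of microglia. By the sample descriptions, libraries WT 2 and KO 2 came from 2 males each and the others from 1 female and 1 male; the sex field of the labels, which lists male and female throughout, differs from this. Strain, allele and litter are not given in the sources used here. Below, p-values for genotype within a class measure only the spread between pooled libraries. Those of tests that compare classes had the library as a block and measure only how the class difference varied over these pooled libraries. In every list of library values below the order is WT 1, WT 2, WT 3, KO 2, KO 3.

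Complex II oxidises succinate, complex III passes the electrons to the small carrier cytochrome c, complex IV (cytochrome c oxidase) hands them to oxygen, and complex V uses the resulting proton gradient to make ATP. Some subunits of complexes III to V are encoded by mitochondrial DNA, while the members here are encoded in the nucleus. Several complex IV subunits exist as a common form and as a form known from muscle, lung, testis or other tissues, and subunit c of the ATP synthase is encoded by 3 genes whose mature protein is the same.

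The files held 40345 barcodes, and 28647 cells passed the filters, 4470 to 7790 per library, from libraries of 60024793 to 91205882 UMIs. A UMI (unique molecular identifier) counts 1 captured 3′ transcript end, so levels in CPM (counts scaled to a fixed total of UMIs per library and class) do not grow with transcript length. Pairs of libraries shared 12 to 26 cell barcodes. No author annotation was used: cells were clustered without the members, complex I genes and mitochondrially encoded genes, and clusters were named from marker genes, with "-like" for such a rebuilt class. All markers of a class were highest there for interneuron-like, Cajal-Retzius-like, CA1-like, dentate granule-like, ependymal-like, fibroblast-like, border macrophage-like and mural-like cells. CA3-like neurons, excitatory neurons and intermediate progenitor-like cells had the highest level for 4 of 6 of their markers, dividing radial glia-like cells for 4 of 10 and microglia-like cells for 7 of 9, and no marker of any class was at 0 in it. In microglia-like cells Trem2 itself stood at 1498, 1585 and 1373 CPM in WT and at 63.69 and 92.91 CPM in KO libraries, as the labels have it. The sources used here do not say whether the 3′ end read here lies in the deleted part.

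Among the named classes, the members together took the largest share of RNA in interneuron-like and mural-like cells. The smallest shares were in border macrophage-like and endothelial-like cells. Interneuron-like cells devoted 2.526%, 2.245%, 2.407%, 2.279% and 2.471% of their UMIs to them. Excitatory neurons as a whole devoted 1.786%, 1.703%, 1.807%, 1.658% and 1.8%, so no interneuron library came down to any pooled excitatory library. Single clusters did overlap. The excitatory cluster led by St18 and Fxyd7 (251 cells) had 2.006% to 2.288%, and the Adarb2- and Npas1-led interneuron cluster 2.062% to 2.322%. A cluster of 520 shallow cells in the radial glia or astrocyte-like class (median 1863.5 UMIs) had 2.342% to 2.754%. Mural-like cells had 2.149% ± 0.101 (SD, n = 5) and Cajal-Retzius-like cells, the early-born Reln-positive neurons of the outer layer, had 2.044% ± 0.0855. Radial glia or astrocyte-like cells were at 1.837% ± 0.0811, ependymal-like cells at 1.622% ± 0.0977, microglia-like cells at 1.551% ± 0.149, endothelial-like cells at 1.479% ± 0.0866 and border macrophage-like cells at 1.317% ± 0.115 in the 4 libraries with enough cells. CA1-like, CA3-like and dentate granule-like neurons were at 1.764% ± 0.0662, 1.789% ± 0.0753 and 1.698% ± 0.0779; their ranges over libraries overlapped.

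A share is not an amount per cell. Among the classes with member levels given here, ependymal-like cells held the most member UMIs per cell, 459.4 on average, with library median depths of 16030 to 24705 UMIs. Per cell, interneuron-like cells had 191.5 ± 29.7 member UMIs and excitatory neurons 206.7 ± 19.5 (SD, n = 5), so interneuron-like cells were not higher on that scale. Interneuron-like cells had median depths of 3985.5 to 7190 UMIs against 8049.5 to 10562 in excitatory neurons. Within a class, libraries WT 2 and KO 2 usually had the lowest share: both lay below the other 3 libraries in 10 of 15 non-overlapping classes. In excitatory neurons these libraries also had the highest mitochondrially encoded shares, 6.127% and 6.216% of UMIs against 4.96%, 4.103% and 5.174% in WT 1, WT 3 and KO 3. That order did not hold in every class: in ependymal-like cells WT 1 was highest at 4.87%, and in microglia-like cells KO 3 at 8.27%. The part of the mitochondrial share or of sex in the members' levels was not tested. The number of males entered only as a covariate in alternative fits of genotype.

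**Figure D1:**
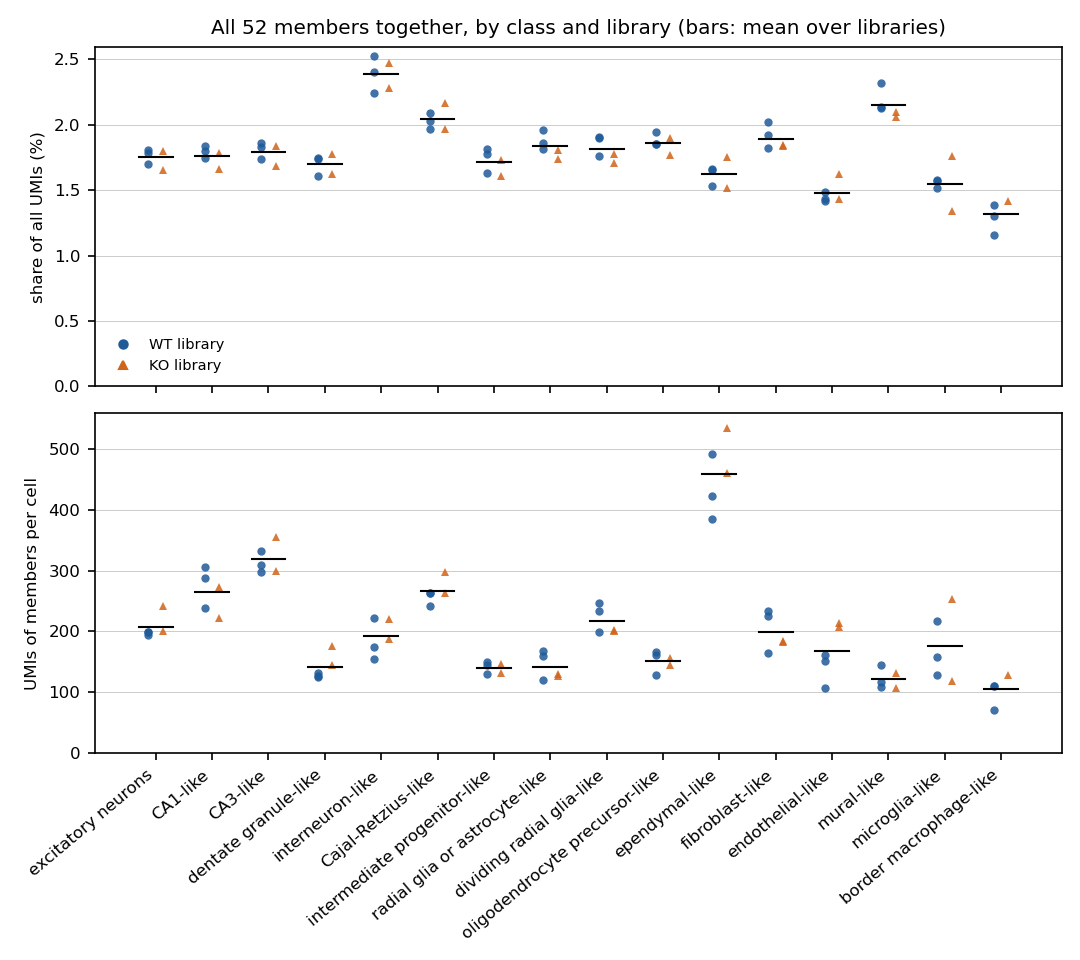
The upper panel plots the percent of all UMIs taken by the 52 members in each class, and the lower panel the member UMIs per cell, with 1 point a library (circles WT, triangles KO) and the mean as a bar. Interneuron-like cells lead in share (2.245% to 2.526%), while ependymal-like cells lead per cell (459.4 UMIs on average).

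Of the alternative complex IV subunits, Cox4i2, Cox6b2, Cox6a2 and Cox7a1 each had their highest mean level in a different named class. COX4I2 is the form of subunit 4 known from lung and oxygen sensing, and its gene was highest in mural-like cells. These cells, the pericytes and smooth muscle of small vessels, had 436.6, 349.3, 476.1, 578.2 and 428.7 CPM. It supplied 19.95%, 16.58%, 21.91%, 23.95% and 19.5% of the UMIs of Cox4i1 and Cox4i2 there. Cox4i1, the common form, stayed the main one in that class at 1762 ± 49.7 CPM (SD, n = 5). Excitatory neurons had 4, 7, 4, 0 and 8 Cox4i2 UMIs in all, a mean level of 0.179 CPM.

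A lower Cox4i2 signal was found in the glial lineage. Radial glia or astrocyte-like cells had 14.23, 13.54, 15.75, 18.66 and 13.54 CPM, and dividing radial glia-like cells 6.66 ± 1.78. Within the first class the signal was uneven: the cluster led by Gas1, Thrsp and Hopx had 28.01, 24.92, 35.79, 27.7 and 28.51 CPM, and the cluster led by Aqp4, Slc4a4 and Bcan had 8.475, 7.987, 6.838, 7.487 and 3.101 CPM, with no overlap between them. Endothelial-like cells had 9.044, 0, 9.217, 7.913 and 8.034 CPM, from 18 UMIs. Of 2284 Cox4i2 UMIs in all kept cells, 523 came from the 201 mural-like cells, 522 from the 4522 radial glia or astrocyte-like cells, and 959 from 383 cells of endothelial-led clusters that were kept out of the endothelial class. The largest of those clusters, with 142 cells, had the pericyte gene Rgs5 among its leading genes. Mural-like cells carried 5.72 log2 units more Cox4i2 than endothelial-like cells (SE 0.227, edgeR adjusted p 1.9e-31), and those kept-out clusters are in neither side of that comparison.

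COX6B2, best known from sperm, was the alternative form with the highest share of its family. Ependymal-like cells, the ciliated lining of the ventricles, had 216.5, 193.3, 166.1, 220.3 and 245.0 CPM of Cox6b2, which was 32.36% ± 3.96 of the UMIs of Cox6b1 and Cox6b2. Among classes with values per library, fibroblast-like cells followed at 44.68, 34.52, 46.15, 38.68 and 46.33 CPM, a family share of 7.66% ± 0.811. The 28 choroid plexus-like cells, too few for library values, had 49.02 CPM (41 UMIs). An unnamed cluster of 17 cells led by Deup1 had 117.2 CPM (39 UMIs). Radial glia or astrocyte-like cells (10.47 ± 1.96 CPM), Cajal-Retzius-like cells (10.28 ± 3.01) and oligodendrocyte precursor-like cells (9.995 ± 0.987) did not differ from each other beyond their spread. Excitatory neurons were at 0.876 ± 0.148 and interneuron-like cells at 0.464 ± 0.426 CPM. The 2 genes lie on chromosome 7, and the bases before their start sites are shown because the pair has such unlike expression; they come from RefSeq on GRCm38.p6, read 5′ to 3′ on the minus strand and trimmed to bases outside any annotated exon.
Cox6b1, chr7:30626152-30626364: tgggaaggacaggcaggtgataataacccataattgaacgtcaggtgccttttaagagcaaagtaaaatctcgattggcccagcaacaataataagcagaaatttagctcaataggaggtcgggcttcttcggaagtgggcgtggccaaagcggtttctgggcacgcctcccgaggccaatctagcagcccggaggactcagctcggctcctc
Cox6b2, chr7:4753095-4753225: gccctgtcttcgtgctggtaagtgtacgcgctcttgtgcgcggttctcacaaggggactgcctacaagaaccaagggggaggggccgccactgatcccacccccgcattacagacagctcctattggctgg
In the 250 bases before each start, Cox6b1 held the ETS motif and Cox6b2 the SP1 motif of the search described further on, both outside the printed stretches.

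COX6A2 and COX7A1 are the heart and skeletal muscle forms of their subunits. Cox6a2 was detected mainly in interneuron-like cells, at 8.482, 7.071, 7.769, 3.163 and 11.22 CPM (133 UMIs in all), or 1.434% ± 0.451 of the Cox6a family. The Sst-, Npy- and Lhx6-led interneuron cluster had 12.47, 11.29, 10.14, 3.214 and 13.41 CPM, and the Adarb2- and Npas1-led cluster 1.255, 0, 4.078, 3.049 and 6.298 CPM. Values of these clusters overlapped. Interneuron-like cells exceeded excitatory neurons (0.177 CPM) by 5.21 log2 units (SE 0.304, edgeR adjusted p 1.26e-14). No Cox6a2 UMI was seen in ependymal-like, fibroblast-like, endothelial-like, mural-like or border macrophage-like cells, where a count of 0 still allows 0.291, 0.605, 1.305, 2.62 and 2.992 CPM, limits that cover counting error only. Microglia-like cells had 3.086, 9.257, 0, 7.72 and 0 CPM, from 13 UMIs, a range that overlapped the interneuron-like one. Cox6a2 overlaps Itgad on the other strand, and the sources used here do not say whether counting used strand; Cox4i1, Cox5a, Cox6c, Uqcrb, Uqcrc2, Atp5a1, Atp5d, Atp5f1, Atp5j, Atp5l, Atp5md and Atp5o also overlap a gene on the other strand.

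Among the named classes, Cox7a1 was highest in Cajal-Retzius-like cells, at 18.58, 14.07, 13.01, 11.94 and 15.49 CPM, against 1.776, 2.162, 1.569, 1.767 and 1.665 in excitatory neurons, with no overlap. The difference was 3.01 log2 units (SE 0.167, edgeR adjusted p 2.41e-15). An unnamed cluster of 140 cells led by Wnt8b and Rspo3 had 23.27 CPM, from 26 UMIs. In Cajal-Retzius-like cells Cox7a1 made up only 2.4% ± 0.242 of the UMIs of Cox7a1 and Cox7a2. Microglia-like cells (8.363 ± 7.57 CPM, from 14 UMIs), ependymal-like cells (7.023 ± 3.0), fibroblast-like cells (6.898 ± 4.24) and mural-like cells (5.907 ± 3.95, from 7 UMIs) came next and did not differ from each other beyond their spread. Cox7b2, a form known from testis, was low, with its highest class means at 1.512 ± 1.03 CPM in dentate granule-like neurons and 1.315 ± 0.639 in radial glia or astrocyte-like cells. Cox8b, the muscle form of subunit 8, had no UMI in a named class, and Cox8c had 5 UMIs in named classes that do not overlap. Neither entered a test in the main fits.

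**Figure D2:**
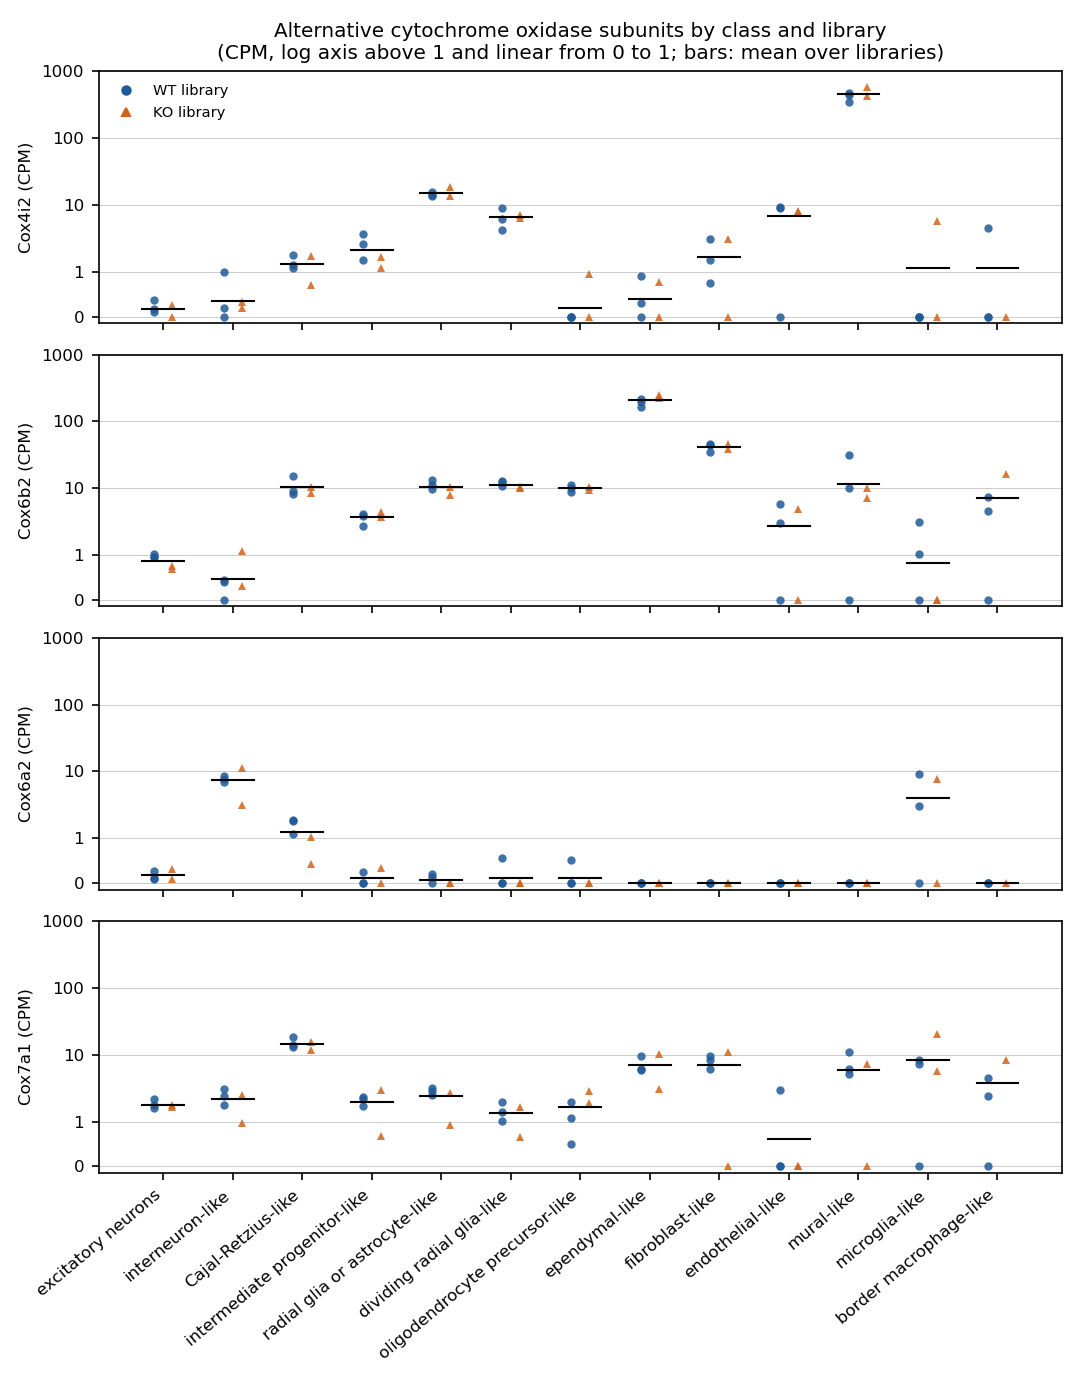
Each panel plots the CPM of 1 alternative complex IV gene by class (axis logarithmic above 1 and linear from 0 to 1), with 1 point a library (circles WT, triangles KO) and the mean as a bar. Cox4i2 peaks in mural-like cells (349.3 to 578.2), Cox6b2 in ependymal-like cells (166.1 to 245.0), Cox6a2 in interneuron-like cells (3.163 to 11.22) and Cox7a1 in Cajal-Retzius-like cells (11.94 to 18.58).

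The 3 genes for subunit c, which forms the turning ring of the ATP synthase, contributed in different proportions by class. Atp5g1 led in CA1-like neurons with 50.37% ± 1.31 of the family's UMIs, in CA3-like neurons with 48.4% ± 0.962 and in interneuron-like cells with 48.2% ± 1.15 (SD, n = 5). In radial glia or astrocyte-like cells it gave 29.05%, 29.27%, 28.75%, 29.85% and 28.93%, and Atp5g2 led with 42.92%, 42.82%, 44.73%, 43.11% and 42.37%. Atp5g2 led as well in intermediate progenitor-like cells (44.91% ± 1.61), dividing radial glia-like cells (49.24% ± 0.406), oligodendrocyte precursor-like cells (51.26% ± 1.6) and microglia-like cells (50.85% ± 8.54). Dentate granule-like cells (39.13% Atp5g1 and 33.45% Atp5g2) and Cajal-Retzius-like cells (37.11% and 32.98%) lay between. Ependymal-like cells were about even, at 462.7 CPM of Atp5g1 and 465.1 of Atp5g2. Excitatory clusters of no named field differed among themselves. That led by Prox1 and Adamts18 (1477 cells) had 401.8 and 435.8 CPM, and that led by St18 and Fxyd7 1040 and 388.9. Prox1 is itself a dentate granule marker, but its cluster was raised in 1 of these markers, against 3 in the dentate granule-like cluster. Shares inside a family do not depend on how libraries are scaled. In CPM, Atp5g1 was at 681.4, 632.6, 711.4, 666.9 and 732.1 in excitatory neurons and at 403.7, 405.4, 388.1, 420.8 and 387.2 in radial glia or astrocyte-like cells, without overlap. That is a difference of 0.81 log2 units (SE 0.0573, edgeR adjusted p 5.66e-10), while Atp5g2 was 0.59 lower in the neurons (log2 fold change -0.59, SE 0.0507, edgeR adjusted p 7.77e-09).

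**Figure D3:**
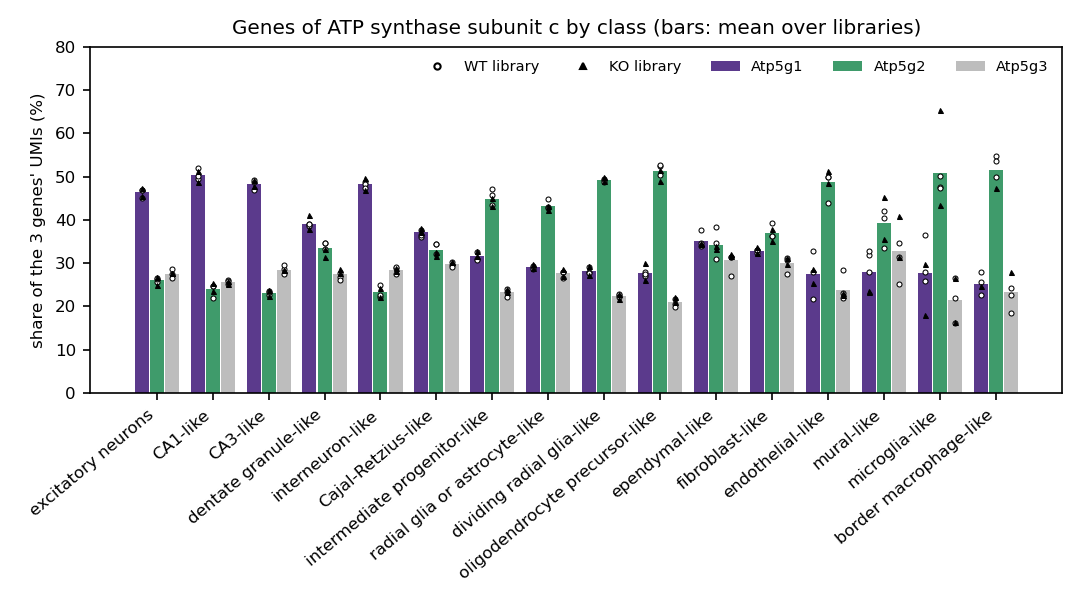
Bars give the mean share of Atp5g1, Atp5g2 and Atp5g3 in their summed UMIs by class, in percent, with circles for WT and triangles for KO libraries. Atp5g1 leads in CA1-like neurons (50.37%) and Atp5g2 in oligodendrocyte precursor-like cells (51.26%).

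Promoter sequence was available in the RefSeq table (GRCm38.p6) for 40 of the 52 members; Atp5a1, Atp5mpl, Cox4i1, Cox4i2, Cox6a2, Cox6c, Cox8c, Cyc1, Sdhc, Uqcrb, Uqcrc2 and Uqcrq were not in it. The 250 bases before each start were searched on both strands for short motifs. NRF1, a regulator long known from respiratory genes, binds a motif searched as GCGCA, any base, then GCGC: it was found in 8 of 40 members (20%) and in 4.233% of all 27025 genes in the table. The ETS motif CCGGAAG was in 9 (22.5% against 7.826%), the YY1 motif (AAGATG joined to GCGG) in 1 (2.5% against 0.359%) and the CRE motif TGACGTCA in 2 (5.0% against 1.769%). The SP1 motif GGGCGGGG was in 6 (15% against 18.02%) and the TATA motif TATAAA in 3 (7.5% against 14.327%). A match of letters is not a binding site. The subunit c genes differed in the NRF1 motif: Atp5g2 held it and Atp5g1 and Atp5g3 did not. The Atp5g2 match lies inside the annotated span of its gene, whose 5′ end is at 102672352. The stretch shown for Atp5k overlaps the 5′ end of its gene at 108434448. The stretches below, on the minus strand, show the motif in capitals with up to 10 bases on either side, for Atp5g2 and for other members that also held it: Atp5k of complex V, Sdhd of complex II, the complex III assembly gene Uqcc2 and Cox6a1 of complex IV.
Atp5g2, chr15:102671070-102671099: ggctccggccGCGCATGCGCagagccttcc
Atp5k, chr5:108434430-108434459: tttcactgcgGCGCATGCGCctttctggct
Sdhd, chr9:50603909-50603938: tcgctggggtGCGCACGCGCggtggcagcg
Uqcc2, chr17:27133920-27133949: gcgccttagtGCGCACGCGCcctctgcggt
Cox6a1, chr5:115349101-115349130: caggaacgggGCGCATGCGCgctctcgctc
The bases before the starts of Atp5g1 and Atp5g3 are given for comparison, on the minus strand and outside annotated exons.
Atp5g1, chr11:96075671-96075881: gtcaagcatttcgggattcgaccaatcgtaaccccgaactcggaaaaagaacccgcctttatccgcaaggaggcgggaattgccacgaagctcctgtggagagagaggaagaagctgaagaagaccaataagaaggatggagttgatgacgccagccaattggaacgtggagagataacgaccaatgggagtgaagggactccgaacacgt
Atp5g3, chr2:73911327-73911576: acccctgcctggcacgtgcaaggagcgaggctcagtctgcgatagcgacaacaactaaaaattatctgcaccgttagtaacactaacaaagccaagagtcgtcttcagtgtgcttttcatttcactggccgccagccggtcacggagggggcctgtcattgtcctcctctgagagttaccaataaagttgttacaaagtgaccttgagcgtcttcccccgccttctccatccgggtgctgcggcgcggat

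Interneuron-like cells exceeded the pooled excitatory neurons across nearly the whole set. Of 49 members tested, 43 were higher and 0 lower at an edgeR adjusted p under 0.05, where 27.5% of all 14606 genes tested were higher and 28.7% lower (56.1% in either direction). At an unadjusted p under 0.05, edgeR had 1 member lower (Cox7b2, adjusted p 0.0757), and DESeq2 called 0 lower. The median member stood 0.377 log2 units higher, and the median of all genes was -0.0127. All 17 members of complex V and all 4 of complex II were higher, with 8 of 9 in complex III and 11 of 14 tested in complex IV.

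Cox8a and Cox5a, complex IV subunits present in every cell, differed most among the well-counted members. Cox8a had 1434, 1212, 1318, 1169 and 1313 CPM in interneuron-like cells and 645.8, 620.8, 639.1, 538.4 and 606.9 in excitatory neurons, a difference of 1.05 log2 units (SE 0.0326, edgeR adjusted p 4.51e-21). Cox5a had 1413, 1400, 1477, 1563 and 1520 against 690.1, 752.5, 751.5, 774.2 and 751.7 CPM, or 0.96 log2 units (SE 0.0311, edgeR adjusted p 1.34e-20). In both genes every interneuron library lay above every excitatory library. In complex III, Cyc1, which carries the haem that reduces cytochrome c, was 0.68 higher and Uqcrb 0.66. Cytochrome c itself (Cycs) had 335.2, 293.9, 281.9, 268.5 and 304.7 against 197.9, 203.7, 207.3, 213.7 and 216.4 CPM, again without overlap, and was 0.48 higher (SE 0.0445, edgeR adjusted p 3.36e-10). In complex II, Sdhd (membrane anchor) was 0.62 higher, Sdhb (iron-sulphur subunit) 0.39 and Sdhc (membrane anchor) 0.35. Sdha, the flavoprotein, was only 0.17 higher (SE 0.0564, edgeR adjusted p 0.00987), with overlapping libraries, and its adjusted p was 0.075 without WT 3 and 0.0758 without KO 2. Markers of excitatory neurons summed to 53.98 to 126.3 CPM in the interneuron-like libraries and to 1655 to 1781 in the excitatory ones.

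Among related genes, the complex I list gave a like count and the other lists did not. Of the 38 genes taken by symbol as nuclear complex I subunits (Nduf genes) 37 were higher and 0 lower, with Ndufb7 0.63 higher. That list also takes in Ndufa4, known as a complex IV subunit, and its close relative Ndufa4l2. The mitochondrially encoded subunits divided, 6 of 13 higher and 2 lower, with mt-Nd4l 0.31 higher and mt-Co1 0.20 lower (log2 fold change -0.20). Of 32 assembly factors tested 12 were higher and 4 lower. Of 8 regulators and supercomplex factors tested 3 were higher and 2 lower, and of 9 transcriptional regulators 4 were higher. Chchd10, a protein of the inner membrane cristae, was 2.50 log2 units higher, and Ppargc1a, the coactivator that drives respiratory gene programmes, 2.74 higher.

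Cajal-Retzius-like cells also ran above excitatory neurons. Of 50 members tested 37 were higher and 4 lower (all genes: 32.3% and 35.6%), with a median of 0.241 against -0.0245 for all genes. Beside Cox7a1, Cox6b2 differed most (3.50 log2 units, SE 0.212, edgeR adjusted p 1.64e-14). Cox8a had 926.2, 922.1, 980.6, 895.8 and 999.7 CPM, above every excitatory library, and was 0.61 higher (SE 0.0312, edgeR adjusted p 3.38e-16). Uqcc1, an assembly factor for cytochrome b, was at 30.59, 24.69, 35.71, 30.54 and 29.25 CPM against 17.58 to 20.09, a difference of 0.65 log2 units. The 4 members of complex II were all higher, from 0.21 for Sdhb, which turned to -0.095 when cells had to carry their class markers, to 0.33 for Sdha.

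Lower members were led by Atp5g1, at 596.3, 538.6, 566.0, 575.4 and 612.6 CPM against at least 632.6 in excitatory neurons (log2 fold change -0.27, SE 0.0293, edgeR adjusted p 5.41e-09). Cox6c and Cox5a were each 0.20 lower (log2 fold changes -0.20 and -0.20). The mitochondrially encoded genes went the other way from the nuclear ones: 0 of 13 were higher and 13 lower, with a median of -0.299, while 33 of 38 complex I subunits were higher and 2 lower. At an unadjusted p under 0.05 the edgeR count of mitochondrially encoded genes above excitatory neurons was also 0, since all 13 fold changes were negative. Excitatory markers summed to 669.5 to 760.6 CPM in Cajal-Retzius-like cells, and their part in the result was not tested. Requiring each cell to carry its class markers left 8 to 16 Cajal-Retzius-like cells a library, and then only 5 members were called higher, and Uqcc1 was at 0.266.

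Between radial glia and neurons the members differed in both directions. In excitatory neurons against radial glia or astrocyte-like cells 14 of 49 were higher and 20 lower, in a comparison where 82.2% of all genes differed (41.9% higher, 40.4% lower), so the share called was below that of all genes. The medians were -0.0576 for the members and 0.0217 for all genes. Complex III had 6 of 9 members lower and 1 higher, and complex II 3 of 4 lower and 1 higher. Only 8 members were higher without WT 3 or without KO 2, and 9 without KO 3.

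Sdha was at 93.44, 91.77, 78.64, 93.57 and 86.99 CPM in excitatory neurons and 137.0, 141.5, 121.2, 139.5 and 133.6 in radial glia or astrocyte-like cells, with no overlap and a log2 fold change of -0.56 (SE 0.0469, edgeR adjusted p 5.19e-09). Sdhc and Sdhd were lower too, at -0.49 and -0.30. Sdhb went the other way at 0.14 (edgeR adjusted p 0.0195), a call lost without WT 3 (0.074), KO 2 (0.0783) or KO 3 (0.0947). The largest differences were those of the low isoforms Cox4i2 (-6.46) and Cox6b2 (-3.51), both lower in the neurons. Cox8a was lower too (-0.68), with 845.6 to 1148 CPM in the glia. Cox7a2, the common subunit 7a, was higher in the neurons, at 638.2, 582.4, 643.5, 543.5 and 635.8 against 408.1, 377.1, 384.4, 344.2 and 375.7 CPM (0.72 log2 units, SE 0.0514, edgeR adjusted p 5.74e-10). Atp5md, which helps ATP synthase dimers form, was 0.68 higher and Cycs 0.55. The inhibitor of ATP hydrolysis Atpif1, not a member, was 1.47 log2 units higher in the neurons, and Ppargc1a was lower (-2.30).

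Intermediate progenitor-like cells, the Eomes-positive precursors of excitatory neurons, had 12 of 49 members higher than excitatory neurons and 26 lower (all genes: 35.5% and 37.4%). The median member was at -0.0971 and the median gene at -0.00745. Atp5g1 was at 437.3, 369.8, 428.9, 399.1 and 446.9 CPM, far under every excitatory library (log2 fold change -0.76, SE 0.0372, edgeR adjusted p 3.48e-15). Atp5g2, at 584.3, 546.2, 656.0, 569.4 and 588.0 against 371.2 to 404.5 CPM, was 0.58 higher, and so were Cox6b2 (2.06), Cox7a2l (0.51) and Uqcrh, the hinge protein of complex III (0.42). Atp5md (-0.60), Atp5g3 (-0.45) and Cox7b (-0.43) were lower. Of the mitochondrially encoded genes 1 was higher and 11 lower. These cells also carried excitatory markers at 791 to 848.1 CPM, and their part in the result was not tested.

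CA3-like neurons exceeded CA1-like neurons by a little. Of 46 members 15 were higher and 0 lower (all genes: 24.2% and 22.5%), with medians of 0.0646 and -0.00919. With library totals in place of TMM factors the split was 9 higher and 4 lower, 69.23% of the calls instead of 100%. Higher members numbered 5 without the library block, 8 at a mitochondrial limit of 5% and 23 at Leiden resolution 2. At an unadjusted p under 0.05 edgeR had 0 members lower, and DESeq2 called 0. Complex IV gave 7 of the 15 calls, complex V 4, complex II 2 and complex III 0 of 9.

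The supercomplex gene Cox7a2l had 286.2, 292.3, 291.5, 297.0 and 306.9 CPM in CA3-like and 234.2, 228.4, 246.6, 263.9 and 255.2 in CA1-like neurons, without overlap (0.31 log2 units, SE 0.034, edgeR adjusted p 1.47e-06). Cox8a was 0.30 higher and Atp5o, the subunit that ties the head of the ATP synthase to its outer stalk, 0.27. Sdhc was 0.20 higher (edgeR adjusted p 0.00248). Ndufa4, counted with complex I by symbol but known as a complex IV subunit, was 0.61 log2 units higher. CA1 markers summed to 656.9 to 782.1 CPM in CA3-like and 2042 to 2863 in CA1-like neurons, and CA3 markers to 1010 to 1138 CPM in CA3-like and 580.9 to 777.5 in CA1-like neurons. Their part in the result was not tested. Leaving the Nts-led cluster out of the CA1-like class, a setting chosen after seeing the data, gave 5 members lower, 0.133 for Atp5o and an adjusted p of 0.15 for Sdhc, and the 5% limit gave 0.165 for Cox8a.

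Dentate granule-like neurons had 8 of 47 members higher than CA1-like neurons and 19 lower (all genes: 30.9% and 30.5%), with a median of -0.116 against 0.017. Cox7a2l (364.4, 331.8, 332.1, 358.4 and 359.2 CPM) and Cox8a (762.5, 703.2, 721.9, 661.7 and 696.0) lay above every CA1-like library. They were 0.49 and 0.45 log2 units higher, followed by Uqcrh (0.25) and Atp5g2 (0.24). Atp5g1, at 508.5, 451.5, 547.8, 516.4 and 598.9 against 831.1, 776.2, 793.8, 736.4 and 803.6 CPM, was lower (log2 fold change -0.60, SE 0.0558, edgeR adjusted p 2.83e-07). Uqcc2, an assembly factor of complex III, was lower at -0.64, and Uqcrq, a complex III subunit, at -0.53. The Prox1- and Adamts18-led cluster of 1477 cells is in neither side of that comparison.

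Cycs, at 144.8, 155.9, 165.0, 185.8 and 184.1 against 221.6 to 245.8 CPM, was lower at -0.48 (SE 0.0673, edgeR adjusted p 2.19e-05). Of complex I subunits 1 of 37 was higher and 22 lower. At a finer clustering (resolution 2) the Cycs difference turned to 0.076, that of Atp5g1 was -0.214 and that of Cox7a2l 0.261, and 7 members were called lower, with Uqcrh and Uqcrq no longer among the members that passed.

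Mural-like cells exceeded endothelial-like cells, their partners in the vessel wall, in 26 of 45 members and were lower in 2 (all genes: 21.9% and 22.9%). The median member was 0.406 log2 units higher and the median gene was at -0.00272. Higher members numbered 15 at resolution 2 and 17 without a filter on low counts. Cox8a stood at 1533, 1375, 1430, 1238 and 1570 CPM against 590.8, 582.4, 588.7, 478.7 and 629.9 without overlap (1.22 log2 units, SE 0.119, edgeR adjusted p 9.79e-14). Cycs, at 306.7, 294.7, 213.4, 213.0 and 134.4 CPM, lay above the endothelial range of 80.64 to 118.7 and was 1.05 higher. Sdhc was 1.04 higher, at 202.7, 76.4, 135.5, 111.6 and 134.4 CPM against 48.23 to 71.68.

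The lower members were Uqcc3, another complex III assembly factor (-0.87, SE 0.19, edgeR adjusted p 8.73e-05), and Cox7a2l (-0.35, adjusted p 0.0227). The call for Cox7a2l was lost without WT 3 (0.129) and without KO 3 (0.0529). These classes were small, with 18 to 89 mural-like and 17 to 80 endothelial-like cells a library. Mural markers summed to 107.5 to 502.5 CPM in endothelial-like cells. Endothelial markers summed to 91.3 to 239.1 CPM in mural-like cells and to 8332 to 12120 in endothelial-like cells.

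Around Cox4i2, 2 related genes of the inner membrane, not members, differed about as much. Ndufa4l2 was 6.27 log2 units higher in mural-like cells, its close relative Ndufa4 was lower (-2.32), and Higd1b, a small inner membrane protein, was 5.70 higher, all at an edgeR adjusted p of 4.6e-19 or less. Of the complex I list, which holds both Nduf genes named here, 16 of 38 were higher and 3 lower.

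Microglia-like cells differed from excitatory neurons in both directions. Of 49 members 11 were higher and 13 lower (all genes: 26% and 41.3%, or 67.4% in either direction). The median member was at -0.0575, while the median of all genes was at -0.44. Without WT 2 only 7 members were higher, and without WT 1 only 8 were lower. Scaling by library totals gave 9 higher and 22 lower, 29.03% of the calls instead of 45.83%, and shifted the median of all genes by -0.137.

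Atp5g2 was higher at 633.7, 675.8, 693.4, 718.0 and 784.6 CPM against 371.2 to 404.5 (0.95 log2 units, SE 0.147, edgeR adjusted p 3.3e-10), as was Cox8a (0.61). Cox7a1 was 1.83 higher, from 14 UMIs, with an adjusted p of 0.122 without WT 1. Sdhd was 0.61 higher, with an adjusted p of 0.0665 without WT 2 and 0.135 without KO 2. Atp5md was lower at 165.6, 154.3, 128.7, 156.3 and 123.9 CPM against 322.0 to 441.8 (log2 fold change -1.25, SE 0.164, edgeR adjusted p 1.01e-13). Cox7a2 (-0.94) and Cycs (-0.81) were lower too, as was Uqcc1 (-1.09), with an adjusted p of 0.0691 without WT 1. Microglia-like libraries had 93, 47, 17, 36 and 11 cells.

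**Figure D4:**
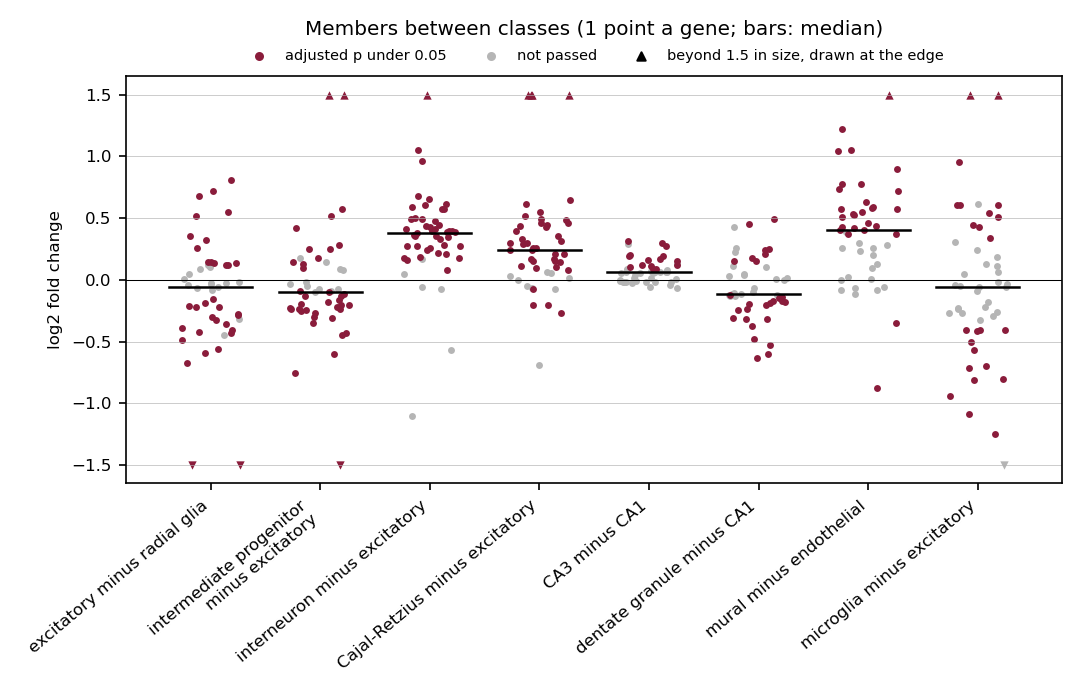
Each point is the log2 fold change of 1 member between 2 classes, dark red where the edgeR adjusted p was under 0.05 and grey otherwise, with the median as a bar and values beyond 1.5 in size drawn as triangles at the edge. The medians are highest for mural-like against endothelial-like cells (0.406) and interneuron-like cells against excitatory neurons (0.377).

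No member was called between KO and WT in the 13 classes tested. Mural-like, endothelial-like and border macrophage-like cells were not tested for genotype. The model had genotype as its only term, and 0 members passed an edgeR adjusted p of 0.05 in each class. Of all genes, 0.0176% were called in interneuron-like cells, 0.00886% in Cajal-Retzius-like cells, 0.0453% in microglia-like cells (0.0151% higher and 0.0302% lower in KO) and 0% in the other 10. At an unadjusted p under 0.05 edgeR had 1 member each in CA1-like, dentate granule-like and Cajal-Retzius-like cells, 2 in dividing radial glia-like cells and 0 in the other 9 classes, and DESeq2 called 0 in every class. Of all genes, 4.486%, 5.725%, 2.819% and 3.76% had such a p in the classes named, in that order, and 1.775% to 5.341% in the other 9. The median standard error of a member was 0.0915 log2 units in excitatory neurons and 0.279 in microglia-like cells. Small shifts were thus not detectable, least of all in microglia-like cells. The members named below were picked by p, so a lack of overlap between WT and KO libraries adds no support. It was found for 11 of 46 members in CA1-like neurons and, at the fewest, for 2 in radial glia or astrocyte-like and 2 in intermediate progenitor-like cells. The share of all genes without overlap is not given here.

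In CA1-like neurons the smallest p belonged to Cox8a. It had 566.4, 538.2 and 543.5 CPM in WT and 433.1 and 501.7 in KO libraries, which did not overlap, with a log2 fold change of -0.21 (SE 0.0949, unadjusted p 0.0442, edgeR adjusted p 0.984). Uqcrq, at 460.2, 392.7 and 425.3 against 323.6 and 403.9 CPM, had -0.21 and overlapped. It was -0.0699 without KO 2 and -0.362 without KO 3, and Cox8a -0.123 and -0.307. CA3-like neurons had Uqcr11 at -0.17 and Cyc1 at 0.14 (edgeR adjusted p 0.999 for both), with Uqcr11 at -0.0593 without KO 2 and -0.288 without KO 3. Whether KO and WT differed by another amount in the CA1-like than in the CA3-like class was tested with an interaction term: 0 of 46 members passed and 0.00754% of all genes did. DESeq2 called 0 members, and edgeR had 0 members and 3.46% of all genes at an unadjusted p under 0.05. The member nearest to it, Uqcc2, differed by -0.15 (unadjusted p 0.0634, edgeR adjusted p 1).

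In dentate granule-like neurons Cycs had 144.8, 155.9 and 165.0 CPM in WT and 185.8 and 184.1 in KO libraries (0.27 log2 units, SE 0.105, unadjusted p 0.0228, edgeR adjusted p 0.852). With resolution 2 this value turned to -0.094. Dividing radial glia-like cells had Atp5md at 260.5, 228.1 and 273.1 against 183.9 and 235.6 CPM, which overlapped (-0.30, unadjusted p 0.0299, edgeR adjusted p 1), and the value was -0.141 without KO 2 and -0.463 without KO 3. Uqcr11 in these cells, at 359.2, 314.0 and 338.8 against 275.6 and 304.1 CPM, did not overlap and had -0.24 (unadjusted p 0.0479, edgeR adjusted p 1). Ependymal-like Cox6b2, at 216.5, 193.3 and 166.1 against 220.3 and 245.0 CPM, did not overlap and had 0.28 (edgeR adjusted p 1).

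In the other classes the member with the smallest p was as follows, none of them called by edgeR. Cajal-Retzius-like cells had Cox5a at 590.3, 673.9 and 607.1 CPM in WT and 740.7 and 682.3 in KO libraries, without overlap (0.21, unadjusted p 0.0445, edgeR adjusted p 1). Interneuron-like cells had Atp5mpl, a small ATP synthase protein, at 353.1, 276.8 and 310.5 against 239.4 and 279.2 CPM, with overlap (-0.25, edgeR adjusted p 0.905). Excitatory neurons as a whole had Cox8a at -0.13 and oligodendrocyte precursor-like cells Uqcr11 at -0.22 (edgeR adjusted p 0.999 for both). Radial glia or astrocyte-like cells had Uqcrq at 468.3, 411.9 and 437.5 against 344.0 and 408.3 CPM, without overlap (-0.24, edgeR adjusted p 1). Intermediate progenitor-like cells had Cox4i2 at -0.90 (SE 0.546, edgeR adjusted p 1), from a low count. Fibroblast-like cells had Atp5e, the epsilon subunit, at -0.30, and microglia-like cells Sdhb at 0.41 with an SE of 0.283 (edgeR adjusted p 0.999 and 1).

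The direction of the members, none of them called, leaned in some classes. In dividing radial glia-like cells 7 of 47 were above 0 with a median of -0.103, and in radial glia or astrocyte-like cells 11 of 49 with a median of -0.0841, where the median gene was at -0.00527 and 0.00177. Leaving out 1 library moved these medians to between -0.143 and -0.0796 and between -0.126 and -0.0521. Intermediate progenitor-like cells had 13 of 47 above 0 (median -0.0444), with medians of -0.0854 to -0.0246 leaving out 1 library. Of all genes tested, 46.56% (excitatory neurons) to 51.7% (microglia-like cells) were above 0 in the 13 classes. Excitatory neurons had 21 of 48 above 0 (median -0.00775), or 35 of 49 (0.0322) without KO 2. Cajal-Retzius-like cells had 27 of 47 above 0 (0.04), or 43 of 47 (0.124) without KO 2 and 21 of 47 (-0.0256) without KO 3. Microglia-like cells had 29 of 44 above 0 with a median of 0.0869, and this too moved with single libraries: the median was -0.353 without KO 2, which had 36 cells, and 0.211 without KO 3, which had 11. Neither the 38 complex I subunits nor the 13 mitochondrially encoded genes had a call in any of the 13 classes tested.

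**Figure D5:**
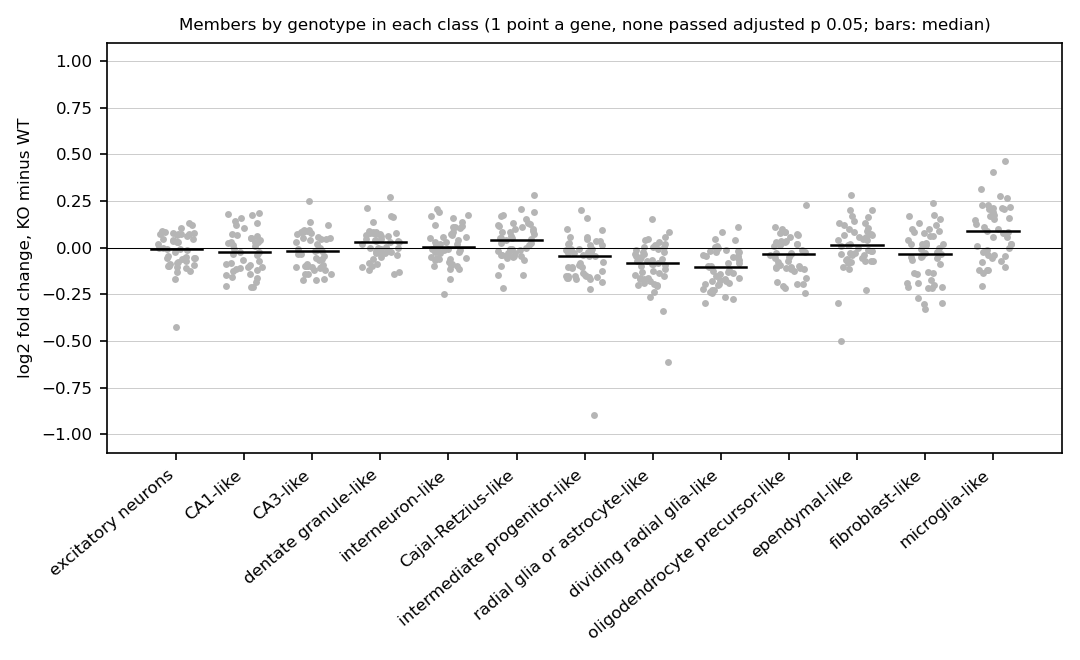
Each point is the log2 fold change of 1 member between KO and WT libraries in 1 class, none with an edgeR adjusted p under 0.05, and bars are medians. Medians run from -0.103 in dividing radial glia-like cells to 0.0869 in microglia-like cells.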

How the data were processed

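Gene expression was measured in 5 droplet libraries of newborn mouse hippocampus. Per the submitters' processing notes and the file headers, the authors made the deposited UMI counts with Cell Ranger 6.1 against mm10; the annotation release and the use of strand are not given in the sources used here. Gene positions are from GENCODE vM21.

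Barcodes needed 500 genes and 1000 UMIs, with no more than 15% of UMIs from mitochondrial genes, and the top Scrublet scorers were removed up to 0.8% per 1000 barcodes (2052 cells). Cells were clustered (scanpy 1.11.5, Leiden resolution 1, 2000 variable genes, 30 components) and named from marker lists. The sums of counts over the cells of a class in 1 library entered edgeR 4.0.16 (quasi-likelihood test, TMM, filterByExpr, Benjamini-Hochberg adjustment over all genes tested). Pairs of classes had the library as a block; genotype was the only term between WT and KO. Scripts were tested on simulated data. The members, gene lists and comparisons were chosen with earlier results of these data known. Between classes, the members named were up to 4 per direction with the largest changes among those called with a mean of at least 20 counts a library; for genotype they were taken from the 4 smallest p-values in a class. The complex II members, Cyc1, Cycs and the tissue isoforms could be named in any comparison. Alternatives included DESeq2 1.42.0, other scalings and filters, leaving out each library, and other clusterings.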

Additional observations from a re-analysis of the deposited data

How the results depend on the processing

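Each result was recomputed under the other settings. Of the values that answer a comparison, 535 were unchanged in direction and size class and 40 moved; of single-gene values 1238 were the same, 32 lost and 1 gained a call, and 3 turned. No KO against WT call on a member appeared in any of 226 fits. The replicate numbers are shared by only 2 pairs of libraries and are not shown to pair them (same-number correlations 0.166 to 0.401); with the replicate number as a block, 0 members were called in every class and in the interaction.

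Excitatory neurons against radial glia had 8 members higher without the library block and at resolution 2, and 8 to 14 leaving out 1 library. Microglia-like cells had 7 higher with DESeq2 and at a mitochondrial limit of 5%, and 7 to 13 leaving out 1 library (7 without WT 2); lower were 22 with library totals, 8 at the 5% limit, and 8 to 19 leaving out 1 library (8 without WT 1). Mural-like cells had 17 higher without a filter on low counts and 15 at resolution 2; lower was 1 with DESeq2, library totals, no block, more doublets removed, resolution 2 or the marker gate, and 1 to 2 leaving out 1 library. Interneuron-like cells had 1 lower without a filter and at a minimum of 2000 UMIs, and 0 to 1 leaving out 1 library (1 without WT 2). Intermediate progenitor-like cells had 15 lower without the block. Cajal-Retzius-like cells had 7 lower without a filter, and 5 higher and 2 lower with the marker gate. CA3-like neurons had 9 higher and 4 lower with library totals, 5 higher without the block, 8 at the 5% limit and 23 at resolution 2, 5 lower without the Nts-led cluster (chosen after seeing the data), and 0 to 1 lower leaving out 1 library (1 without WT 3). Dentate granule-like neurons had 7 lower at resolution 2, 8 with the marker gate, and 5 higher with all classes in 1 fit. The member share in radial glia or astrocyte-like cells was 1.734% at the 5% limit, and their Atp5g1 share 28.67% at resolution 2.

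Cycs turned in dentate granule-like cells at resolution 2 (-0.094 between genotypes, 0.076 against CA1-like neurons), and Sdhb in Cajal-Retzius-like cells under the marker gate (-0.095). The cause was not tested for any of these. Library totals shifted the median of all genes by -0.137 for microglia-like and 0.109 for mural-like cells. Too few cells were left to run the marker gate for genotype in Cajal-Retzius-, intermediate progenitor-, oligodendrocyte precursor-, ependymal-, fibroblast- and microglia-like cells and for the progenitor pair, the 5% limit for fibroblast- and microglia-like genotype and the mural pair, more doublets removed for ependymal-like genotype, and a choroid plexus comparison. Depth limits the small classes most.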
